A study of Mus musculus with 18 samples.

Results

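The genes of cholesterol and fatty acid synthesis described here are 32 named genes, all found in the deposited expression table by symbol. They make up 32 of the 30452 genes of the table and 32 of the 11936 that reached 1 FPKM (fragments scaled to transcript length and to the size of the library) in at least 3 libraries, the condition for being tested. By role, 19 encode enzymes of sterol synthesis, 5 encode the SREBP transcription factors and the proteins that hold or escort them, 1 encodes a sterol carrier and 7 encode enzymes that make or desaturate fatty acids. Each of 31 members reached 1 FPKM in all 18 libraries, and Tm7sf2, a sterol reductase, did so in 15. The smallest count of any member in any library was 209 fragments, also for Tm7sf2.

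The study used MC3T3-E1, an established line of mouse pre-osteoblasts, grown on discs of piezoelectric fibre membrane intended for bone repair, and sequenced their polyadenylated RNA. The groups were PLLA/ZnO@Col +US and PLLA/ZnO@Col -US (poly-L-lactic acid with zinc oxide and collagen, with and without ultrasound), PLLA/ZnO +US and PLLA/ZnO -US (zinc oxide and no collagen), and PLLA +US and PLLA -US (the plain polymer), with 3 libraries in each. Cells of every group were seeded at 20000 per well on 15 mm discs and cultured for 5 days, and the +US cells received ultrasound for 10 min each day. The labels do not say that the replicates were separate cultures, and the p-values therefore cover only the spread between these libraries, which may be technical.

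Cells make cholesterol from acetyl-CoA through mevalonate, the farnesyl and geranylgeranyl diphosphates and squalene, and a side branch of the same route supplies the lipid anchors of small GTPases and other proteins. SREBP-2 (encoded by Srebf2) mainly drives the sterol genes and SREBP-1 (Srebf1) mainly the fatty acid genes. Both are held in the endoplasmic reticulum with the escort SCAP by INSIG proteins while sterols are plentiful, and are carried to the Golgi and cut into active factors when sterols run low. Mevalonate pathway products are needed by bone cells, and Fdps is the enzyme that nitrogen-containing bisphosphonate drugs inhibit.

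The promoters of 5 members are shown because these genes differ in how their levels run across the libraries, as described further on. Each runs from 250 bases before to 50 bases after an annotated transcript start, 5′ to 3′ on the gene's strand, from RefSeq on GRCm38.p6. Capitals mark the CCAAT box (CCAAT on either strand, bound by the factor NF-Y) and the core of a sterol regulatory element (TCACNCCAC on either strand, bound by SREBPs). The windows are chr13:119690101-119690400 on the plus strand for Hmgcs1, chr13:8885356-8885655 on the plus strand for Idi1, chr13:14063439-14063738 on the minus strand for Ggps1, chr8:122443373-122443672 on the minus strand for Mvd and chr11:120824498-120824797 on the minus strand for Fasn.
Hmgcs1: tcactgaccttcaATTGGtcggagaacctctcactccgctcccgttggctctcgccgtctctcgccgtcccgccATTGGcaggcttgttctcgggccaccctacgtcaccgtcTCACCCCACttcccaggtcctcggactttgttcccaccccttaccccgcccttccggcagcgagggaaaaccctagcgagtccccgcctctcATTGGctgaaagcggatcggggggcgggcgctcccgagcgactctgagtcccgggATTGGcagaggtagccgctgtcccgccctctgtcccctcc
Idi1: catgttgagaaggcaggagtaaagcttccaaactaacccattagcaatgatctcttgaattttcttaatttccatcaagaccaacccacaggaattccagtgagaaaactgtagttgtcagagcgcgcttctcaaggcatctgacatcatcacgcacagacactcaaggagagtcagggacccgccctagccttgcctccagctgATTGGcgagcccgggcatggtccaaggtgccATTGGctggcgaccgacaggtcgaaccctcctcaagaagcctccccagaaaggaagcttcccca
Ggps1: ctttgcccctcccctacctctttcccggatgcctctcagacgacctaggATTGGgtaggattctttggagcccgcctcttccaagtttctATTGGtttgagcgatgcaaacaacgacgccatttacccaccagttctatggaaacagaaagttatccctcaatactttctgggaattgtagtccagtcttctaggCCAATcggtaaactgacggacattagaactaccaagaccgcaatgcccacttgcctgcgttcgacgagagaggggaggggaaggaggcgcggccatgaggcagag
Mvd: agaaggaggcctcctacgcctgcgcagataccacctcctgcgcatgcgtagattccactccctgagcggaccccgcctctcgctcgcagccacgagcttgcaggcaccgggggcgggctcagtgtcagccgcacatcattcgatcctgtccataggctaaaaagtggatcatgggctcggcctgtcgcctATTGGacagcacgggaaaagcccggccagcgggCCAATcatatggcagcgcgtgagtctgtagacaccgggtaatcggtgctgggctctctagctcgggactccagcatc
Fasn: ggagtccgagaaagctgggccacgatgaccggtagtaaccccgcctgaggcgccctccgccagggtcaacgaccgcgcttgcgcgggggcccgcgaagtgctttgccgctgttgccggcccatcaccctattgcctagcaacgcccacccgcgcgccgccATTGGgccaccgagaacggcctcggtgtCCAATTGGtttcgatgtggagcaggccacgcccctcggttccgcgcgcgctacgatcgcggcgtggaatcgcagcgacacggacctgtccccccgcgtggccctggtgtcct

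Hmgcs1 encodes the cytosolic HMG-CoA synthase. Its window held the 1 match to the sterol element core found in the 25 members that had a window. The first base of the match lay 137 bases upstream of the start (-137), and the window also held 4 CCAAT boxes. Idi1 (isopentenyl diphosphate isomerase) held 2 CCAAT boxes, Ggps1 (geranylgeranyl diphosphate synthase) held 3, Mvd (mevalonate diphosphate decarboxylase) held 2, and Fasn (fatty acid synthase) held 3, of which 2 overlapped. RefSeq promoter windows were matched for 25 of the 32 members, 33 windows in all. Fdps, Fdft1, Sqle, Stard4, Scd1, Scd2 and Fads1 had no window and were not searched. A CCAAT box lay in 22 of these windows (66.7%) and in 37.4% of all 32851 promoter windows of the table. The GC box GGGCGG lay in 25 member windows (75.8%) and 35.7% of all windows, and the E-box CACGTG in 6 (18.2%) and 7.15%. The sterol element core lay in 1 member window (3.03%) and 1.24% of all windows. These are counts of exact letters on either strand in a fixed window, so variants of a motif were not counted, and no binding was measured.

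Members covered a wide range of levels in these cells. Per unit of transcript length, the highest were the desaturases Scd2 (74.6 to 145 FPKM over the 18 libraries), Fads2 (41.7 to 89.8) and Fads1 (41.5 to 65.5), and Acly (40.7 to 71.3), which makes cytosolic acetyl-CoA from citrate. Among sterol enzymes, Cyp51, the lanosterol demethylase, spanned 27.8 to 42.7 FPKM and Acat2, the thiolase that joins acetyl-CoA units, 21.9 to 46.1. The lowest were Tm7sf2 (0.719 to 3.18) and Ggps1 (1.27 to 5.63). Between the SREBP genes, Srebf2 (22.4 to 48.1) lay above Srebf1 (8.802 to 15.7) in all 18 libraries. Of the INSIG genes, Insig1 spanned 11.5 to 19.2 FPKM and Insig2 13.2 to 25.3, and of the stearoyl-CoA desaturases, Scd1 spanned 24.5 to 37.7, below Scd2 in every library. Cyp51, Sqle (squalene epoxidase) and Dhcr7 (the last reductase of the route to cholesterol) varied least among the sterol enzymes, at 27.8 to 42.7, 18.1 to 26.6 and 4.17 to 6.35 FPKM, and Idi1 and Fdps varied most, at 2.79 to 17.8 and 11.98 to 74.9. Of the enzymes that turn squalene products into cholesterol, Lss (lanosterol synthase) spanned 4.09 to 7.37 FPKM, Msmo1 (a sterol methyl oxidase) 5.902 to 14.7, Nsdhl (a sterol dehydrogenase) 6.51 to 14.7, Hsd17b7 (a keto-sterol reductase) 3.98 to 8.6004 and Ebp (a sterol isomerase) 13.9 to 36.1. Fdft1, the squalene synthase, spanned 12.6 to 30.4 FPKM, and Acaca, the carboxylase that makes malonyl-CoA for fatty acid synthesis, 2.93 to 7.55. The annotated spans of 6 members (Ggps1, Fdft1, Cyp51, Tm7sf2, Srebf1 and Fads1) overlap that of another tested gene. Whether the counting used strand is not given in the sources used here, and their levels could hold reads of that neighbour.

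Libraries of the series did not group by label alone, and the members' values have to be read with that. Totals ran from 48307580 to 78039543 counts per library. CPM (counts scaled to library size) was summed over the Y-linked genes Ddx3y, Eif2s3y, Kdm5d and Uty. Replicate 1 of PLLA/ZnO@Col +US and replicates 1 and 3 of PLLA/ZnO@Col -US had 1.68 to 3.12 CPM. They are named below as the libraries that lack Y-linked reads, although each of the 4 genes was above 0 FPKM in every library. Replicates 2 and 3 of PLLA/ZnO@Col +US and replicate 3 of both PLLA/ZnO +US and PLLA +US had 19.2 to 46.9 CPM, and the other 11 libraries 81.7 to 154 CPM. The mitochondrial share of counts was 1.83% to 2.27%, 1.57% to 1.87% and 2.31% to 4.54% in those 3 classes. All collagen libraries but PLLA/ZnO@Col -US replicate 2 are in the first 2 classes, and no library of PLLA/ZnO -US or PLLA -US is. An effect of collagen and this split can therefore hardly be told apart. The 4 libraries of the second class are all +US, so an effect of ultrasound and the split can be told apart only in part. Whether these libraries come from another cell stock or carry the wrong label was not tested, and every collagen value below is that of the libraries so labelled. Of the line's defining genes, Runx2 (6.22 to 9.54 FPKM), Col1a1 (500 to 1165) and Spp1 (637 to 3609) were present, while Sp7, Alpl, Bglap and Ibsp stayed below 1 FPKM in every library. Adipocyte markers are relevant because adipocytes are rich in fatty acid enzymes. Of 10 such markers, Adipoq, Lep, Plin1, Cidec and Retn were not found by symbol in the deposited table and could not be checked. The 5 that were found summed to 0.495 to 1.26 FPKM over all libraries, with Pparg at 0 in 15 and Cfd at 0 in 17 of them. By group the sum was 0.626 to 0.879 in PLLA/ZnO@Col +US and 0.495 to 0.87 in PLLA/ZnO@Col -US, 0.778 to 0.956 in PLLA/ZnO +US and 0.966 to 1.22 in PLLA/ZnO -US, and 0.84 to 1.16 in PLLA +US and 0.892 to 1.26 in PLLA -US. Of 5 macrophage markers, Cd14 (9.87 to 17.2 FPKM) was the highest, Cd68 spanned 0.381 to 5.97 FPKM and Csf1r 0.053 to 1.68, while Ptprc reached at most 0.0935 and Adgre1 was at 0 in 9 libraries. The 5 summed to 12.15 to 20.39 FPKM in PLLA/ZnO@Col +US and 16.3 to 23.3 in PLLA/ZnO@Col -US, 14.8 to 20.04 in PLLA/ZnO +US and 10.9 to 21.9 in PLLA/ZnO -US, and 17.5 to 20.7 in PLLA +US and 20.5 to 21.2 in PLLA -US. The part of such cells in the results was not tested. The 3 endothelial and 4 epithelial markers each stayed at or below 0.231 FPKM. In bulk RNA, fewer cells of a type and less RNA per cell cannot be told apart.

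**Figure D1:**
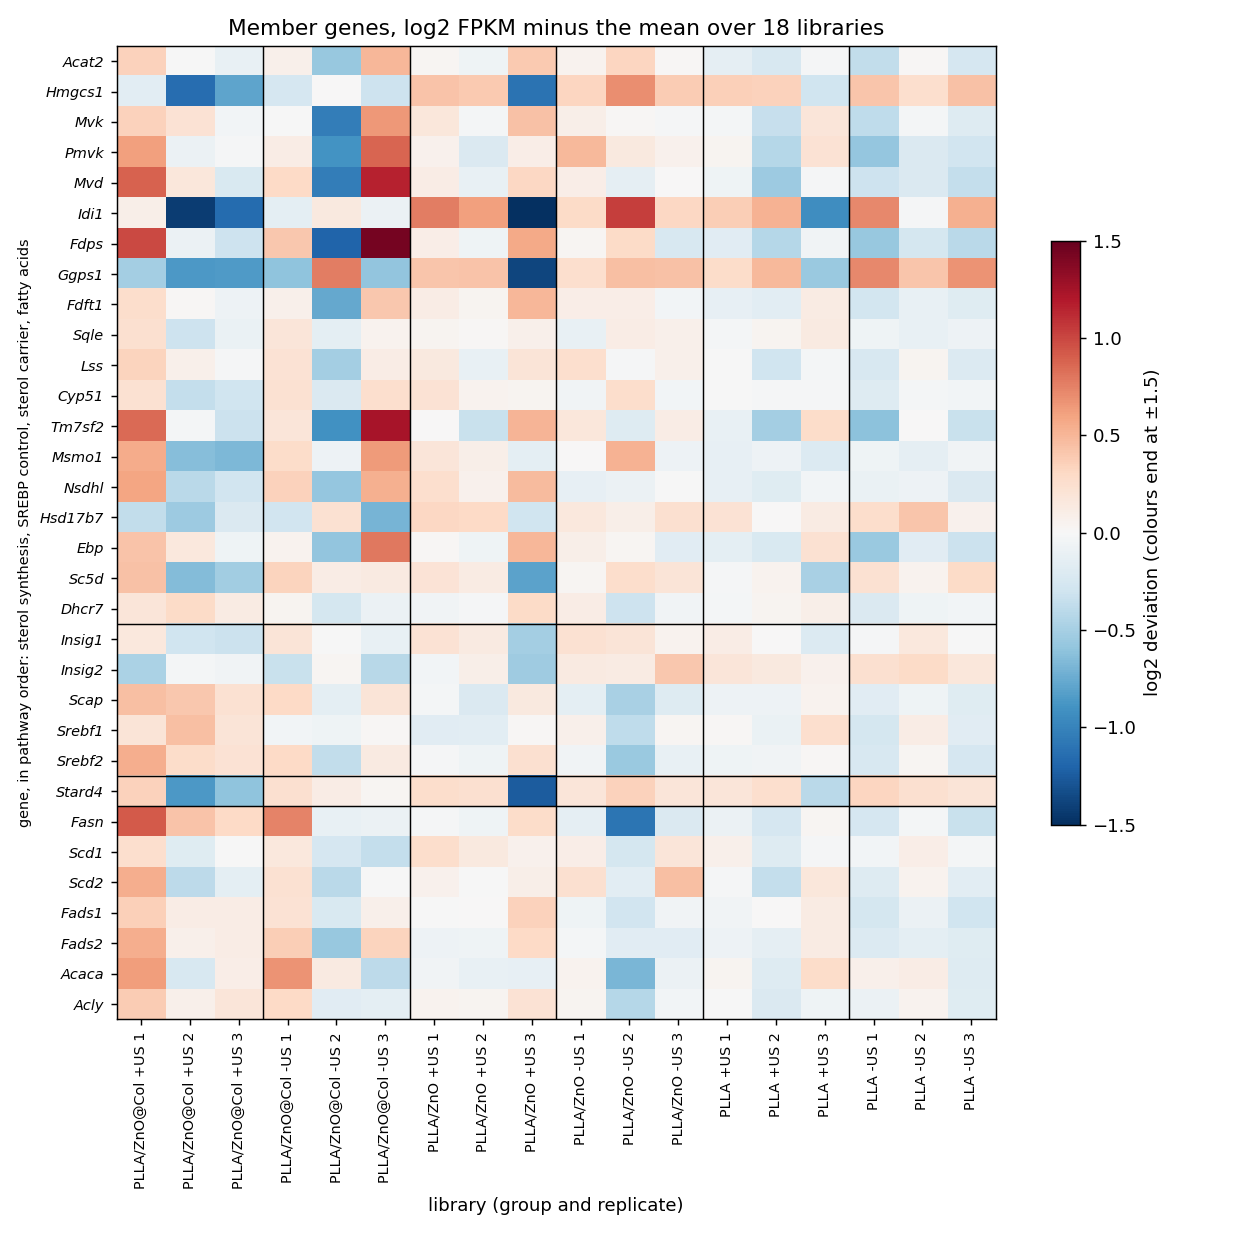
Log2 FPKM of each member (rows, in pathway order) minus its mean over the 18 libraries (columns, by group and replicate), with colours ending at 1.5 in either direction. Idi1, Hmgcs1, Ggps1 and Stard4 are blue in the libraries PLLA/ZnO@Col +US 2 and 3, PLLA/ZnO +US 3 and PLLA +US 3. Hmgcs1 and Ggps1 are also blue in PLLA/ZnO@Col +US 1 and PLLA/ZnO@Col -US 1 and 3. Fdps, Mvd, Pmvk and Mvk are blue in PLLA/ZnO@Col -US 2 and red in PLLA/ZnO@Col -US 3.

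The heat map of deviations shows members moving by library and not only by group. PLLA/ZnO@Col -US replicate 2 held the lowest value of 12 members, 10 of them sterol enzymes (Acat2, Mvk, Pmvk, Mvd, Fdps, Fdft1, Lss, Tm7sf2, Nsdhl and Ebp), while replicate 3 of the same group held the highest value of 8 members, 7 of which (Acat2, Mvk, Pmvk, Mvd, Fdps, Tm7sf2 and Ebp) were lowest in replicate 2. PLLA/ZnO@Col +US replicate 1 held the highest value of 12, among them Scap, Srebf2, Fasn, Fads1 and Fads2. PLLA/ZnO +US replicate 3 was lowest for 6 (Idi1, Ggps1, Sc5d, Insig1, Insig2 and Stard4), and PLLA/ZnO -US replicate 2 for 7, all of them SREBP control or fatty acid genes except Dhcr7. Within a group, the median coefficient of variation of the members was 19.2% for PLLA/ZnO@Col +US and 23.7% for PLLA/ZnO@Col -US. It was 14.7% for PLLA/ZnO +US and 12.1% for PLLA/ZnO -US, and 11% for PLLA +US and 8.27% for PLLA -US. The largest value of any member was 77.1%, for Fdps in PLLA/ZnO@Col -US.

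Fdps, the farnesyl diphosphate synthase (chromosome 3, 89093588 to 89101959), had 54.999, 26.03 and 22.2 FPKM in PLLA/ZnO@Col +US cells, against 36.5, 11.98 and 74.9 in PLLA/ZnO@Col -US cells. Fdps had 29.6, 26.4 and 40.9 FPKM in PLLA/ZnO +US cells, against 28.1, 33.7 and 23.5 in PLLA/ZnO -US cells, and 24.5, 20.5 and 26.6 in PLLA +US cells, against 18.6, 23.1 and 20.9 in PLLA -US cells. Its extremes are 2 replicates of the same group, so the difference between PLLA/ZnO@Col -US replicates spans the whole range of the series. Mvd (chromosome 8, 122433601 to 122443422) had 19.5, 11.9 and 9.05 FPKM in PLLA/ZnO@Col +US cells, against 12.98, 5.16 and 23.6 in PLLA/ZnO@Col -US cells. Mvd had 11.4, 9.77 and 13.2 FPKM in PLLA/ZnO +US cells, against 11.3, 9.61 and 10.6 in PLLA/ZnO -US cells, and 10.1, 7.27 and 10.4 in PLLA +US cells, against 8.53, 9.07 and 8.24 in PLLA -US cells. As for Fdps, the lowest and the highest library were PLLA/ZnO@Col -US replicates 2 and 3. The mevalonate kinase gene Mvk (chromosome 5, 114444269 to 114460591) and the phosphomevalonate kinase gene Pmvk (chromosome 3, 89454541 to 89469013) had the same extremes, at 9.86 to 31.7 FPKM for Mvk and 4.58 to 15.7 FPKM for Pmvk.

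Other members were low in the libraries with few Y-linked reads. Idi1 (chromosome 13, 8885501 to 8892451) had 9.24, 3.22 and 3.89 FPKM in PLLA/ZnO@Col +US cells, against 7.84, 9.61 and 8.12 in PLLA/ZnO@Col -US cells. Idi1 had 14.8, 13.2 and 2.79 FPKM in PLLA/ZnO +US cells, against 10.5, 17.8 and 10.7 in PLLA/ZnO -US cells, and 11.2, 12.4 and 4.54 in PLLA +US cells, against 14.2, 8.54 and 12.5 in PLLA -US cells. It lay at 2.79 to 4.54 FPKM in the 4 libraries with low Y-linked reads and at 7.84 to 17.8 in the other 14. Hmgcs1 (chromosome 13, 119690379 to 119708260) had 19.2, 9.73 and 12.4 FPKM in PLLA/ZnO@Col +US cells, against 18.04, 21.5 and 17.3 in PLLA/ZnO@Col -US cells. Hmgcs1 had 28.8, 28.2 and 9.99 FPKM in PLLA/ZnO +US cells, against 26.8, 34.9 and 27.8 in PLLA/ZnO -US cells, and 27.5, 27.3 and 17.4 in PLLA +US cells, against 28.7, 25.5 and 29.02 in PLLA -US cells. Its 7 libraries with low or no Y-linked reads, at 9.73 to 19.2 FPKM, all lay below the other 11, at 21.5 to 34.9.

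Ggps1 (chromosome 13, 14050659 to 14063488), which makes the lipid anchor of Rab proteins, had 2.32, 1.82 and 1.82 FPKM in PLLA/ZnO@Col +US cells, against 2.17, 5.63 and 2.19 in PLLA/ZnO@Col -US cells. Ggps1 had 4.38, 4.44 and 1.27 FPKM in PLLA/ZnO +US cells, against 3.91, 4.51 and 4.45 in PLLA/ZnO -US cells, and 3.997, 4.62 and 2.24 in PLLA +US cells, against 5.44, 4.38 and 5.25 in PLLA -US cells. The split was the same, with 1.27 to 2.32 FPKM in the 7 libraries against 3.91 to 5.63 in the other 11, so that PLLA/ZnO@Col -US replicate 2 stood apart from the other collagen libraries. Stard4, a soluble carrier of cholesterol (chromosome 18, 33199355 to 33213862), spanned 2.65 to 4.74 FPKM in the 4 libraries with low Y-linked reads and 6.42 to 7.99 in the other 14, and Sc5d, the lathosterol oxidase, 5.599 to 7.004 against 9.696 to 13.32. Over all genes tested, 9.7% lay lower in those 4 libraries than in every other library and 2.97% lay higher, against 5 of 32 members below (Stard4, Msmo1, Sc5d, Insig1 and Idi1) and 0 above. For all 7 libraries the shares were 9.68% below and 4.86% above, against 2 members below (Ggps1 and Hmgcs1) and 3 above (Fads1, Fads2 and Scap). For the 3 libraries that lack Y-linked reads they were 4.85% below and 2.8% above, against 0 members below and 1 above (Fads2). These splits were chosen from the data and are no groups of the study, so they are given as a description with no test.

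**Figure D2:**
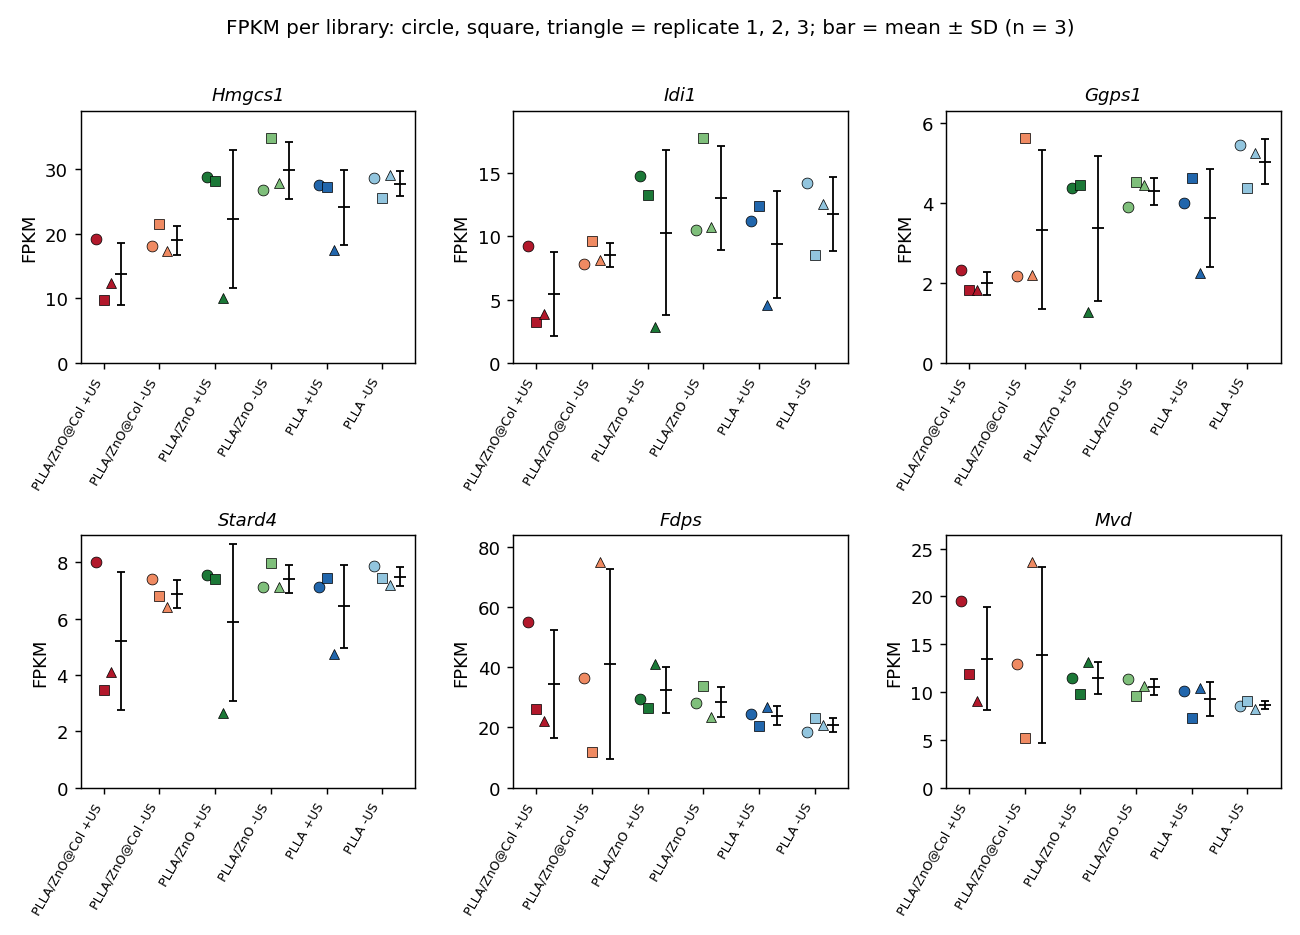
FPKM of Hmgcs1, Idi1, Ggps1, Stard4, Fdps and Mvd in each library by group, with the group mean and SD (n = 3) beside the points. The first 4 genes are low in replicates 2 and 3 of PLLA/ZnO@Col +US and in replicate 3 of PLLA/ZnO +US and PLLA +US. Hmgcs1 and Ggps1 are also low in replicate 1 of PLLA/ZnO@Col +US and replicates 1 and 3 of PLLA/ZnO@Col -US. The SDs for Fdps and Mvd are widest in PLLA/ZnO@Col -US, where the replicates span 11.98 to 74.9 FPKM for Fdps.

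Whether any member differed among the 6 groups was tested first, by edgeR's quasi-likelihood F-test on the counts with Benjamini-Hochberg adjustment over the 11936 genes. None of the 32 members passed an adjusted p of 0.05, and 0 of all genes did (0.0%, smallest adjusted p = 0.18). At an unadjusted p under 0.05 there were 3 members, Scap, Fasn and Srebf2, and 10.8% of all genes (1285). DESeq2 called 506 of the 11936 genes, among them 1 of the 32 members, Scap (adjusted p = 0.0112), and limma called 0. Over the alternatives the adjusted p of Scap ran from 0.0112 to 0.738, and among the edgeR fits it passed only without PLLA/ZnO@Col -US replicate 2 (adjusted p = 0.0494).

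Scap, the sterol-sensing escort of the SREBPs (chromosome 9, 110333288 to 110378776), had the smallest F-test p of the members (adjusted p = 0.251). Its levels were 14.7, 14.2 and 12.6 FPKM in PLLA/ZnO@Col +US cells, against 13.2, 9.69 and 12.3 in PLLA/ZnO@Col -US cells. Scap had 10.5, 9.24 and 11.9 FPKM in PLLA/ZnO +US cells, against 9.74, 7.69 and 9.43 in PLLA/ZnO -US cells, and 10.2, 10.2 and 11.1 in PLLA +US cells, against 9.59, 10.3 and 9.51 in PLLA -US cells. The PLLA/ZnO@Col +US libraries were the 2 highest and the 4th highest of the series, and did not overlap with those of PLLA/ZnO +US. In the 7 libraries with low or no Y-linked reads Scap spanned 11.1 to 14.7 FPKM, above the 7.69 to 10.5 of the other 11. Fasn (chromosome 11, 120805846 to 120824547), which builds palmitate, came next (adjusted p = 0.361). Its levels were 68.4, 48.9 and 44.8 FPKM in PLLA/ZnO@Col +US cells, against 60.9, 33.5 and 34.1 in PLLA/ZnO@Col -US cells. Fasn had 36.002, 34.6 and 43.8 FPKM in PLLA/ZnO +US cells, against 33.1, 16.9 and 31.4 in PLLA/ZnO -US cells, and 34.04, 30.5 and 36.97 in PLLA +US cells, against 30.5, 35.5 and 28.9 in PLLA -US cells. The highest values were in replicate 1 of PLLA/ZnO@Col +US and of PLLA/ZnO@Col -US, which both lack Y-linked reads, and the other PLLA/ZnO@Col -US libraries lay within the range of the PLLA libraries.

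Srebf2 (chromosome 15, 82147181 to 82205379) followed (adjusted p = 0.459). It was at 48.1, 39.96 and 38.4 FPKM in PLLA/ZnO@Col +US cells, against 40.5, 25.5 and 36.2 in PLLA/ZnO@Col -US cells. Srebf2 had 32.7, 31.5 and 39.01 FPKM in PLLA/ZnO +US cells, against 31.7, 22.4 and 30.6 in PLLA/ZnO -US cells, and 31.5, 31.6 and 33.4 in PLLA +US cells, against 27.8, 33.6 and 27.6 in PLLA -US cells. All 3 PLLA/ZnO@Col +US libraries were among the 5 highest, and PLLA/ZnO@Col -US spread over most of the range. Srebf1 (chromosome 11, 60199089 to 60222581; adjusted p = 0.476) was at 13.1, 15.7 and 13.1 FPKM in PLLA/ZnO@Col +US cells, against 11.2, 10.99 and 11.6 in PLLA/ZnO@Col -US cells. Srebf1 had 10.2, 10.3 and 11.6 FPKM in PLLA/ZnO +US cells, against 12.1, 8.802 and 11.7 in PLLA/ZnO -US cells, and 11.6, 10.7 and 13.7 in PLLA +US cells, against 9.52, 12.4 and 10.2 in PLLA -US cells. Its PLLA/ZnO@Col +US libraries lay above all 3 libraries of PLLA/ZnO@Col -US and of PLLA/ZnO +US, and overlapped those of PLLA +US.

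Fads1, the delta-5 fatty acid desaturase (chromosome 19, 10182888 to 10196877; adjusted p = 0.499), was at 65.5, 55.4 and 55.1 FPKM in PLLA/ZnO@Col +US cells, against 59.5, 43.7 and 53.8 in PLLA/ZnO@Col -US cells. Fads1 had 50.7, 51.3 and 64.9 FPKM in PLLA/ZnO +US cells, against 48.9, 41.96 and 49.1 in PLLA/ZnO -US cells, and 49.1, 51.2 and 55.5 in PLLA +US cells, against 42.5, 48.2 and 41.5 in PLLA -US cells. On PLLA/ZnO and on PLLA every +US library lay above every -US library, while on PLLA/ZnO@Col the groups overlapped. Insig2, which retains SCAP in the endoplasmic reticulum (chromosome 1, 121304353 to 121332589; adjusted p = 0.521), was at 13.8, 18.8 and 18.5 FPKM in PLLA/ZnO@Col +US cells, against 15.2, 19.5 and 14.3 in PLLA/ZnO@Col -US cells. Insig2 had 18.6, 20.4 and 13.2 FPKM in PLLA/ZnO +US cells, against 20.97, 20.8 and 25.3 in PLLA/ZnO -US cells, and 21.8, 21.3 and 20.02 in PLLA +US cells, against 22.6, 23.4 and 21.6 in PLLA -US cells. The 6 collagen libraries lay between 13.8 and 19.5 FPKM, PLLA/ZnO +US replicate 3 was the lowest of all, and all PLLA/ZnO -US and PLLA -US libraries were above 20 FPKM.

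**Figure D3:**
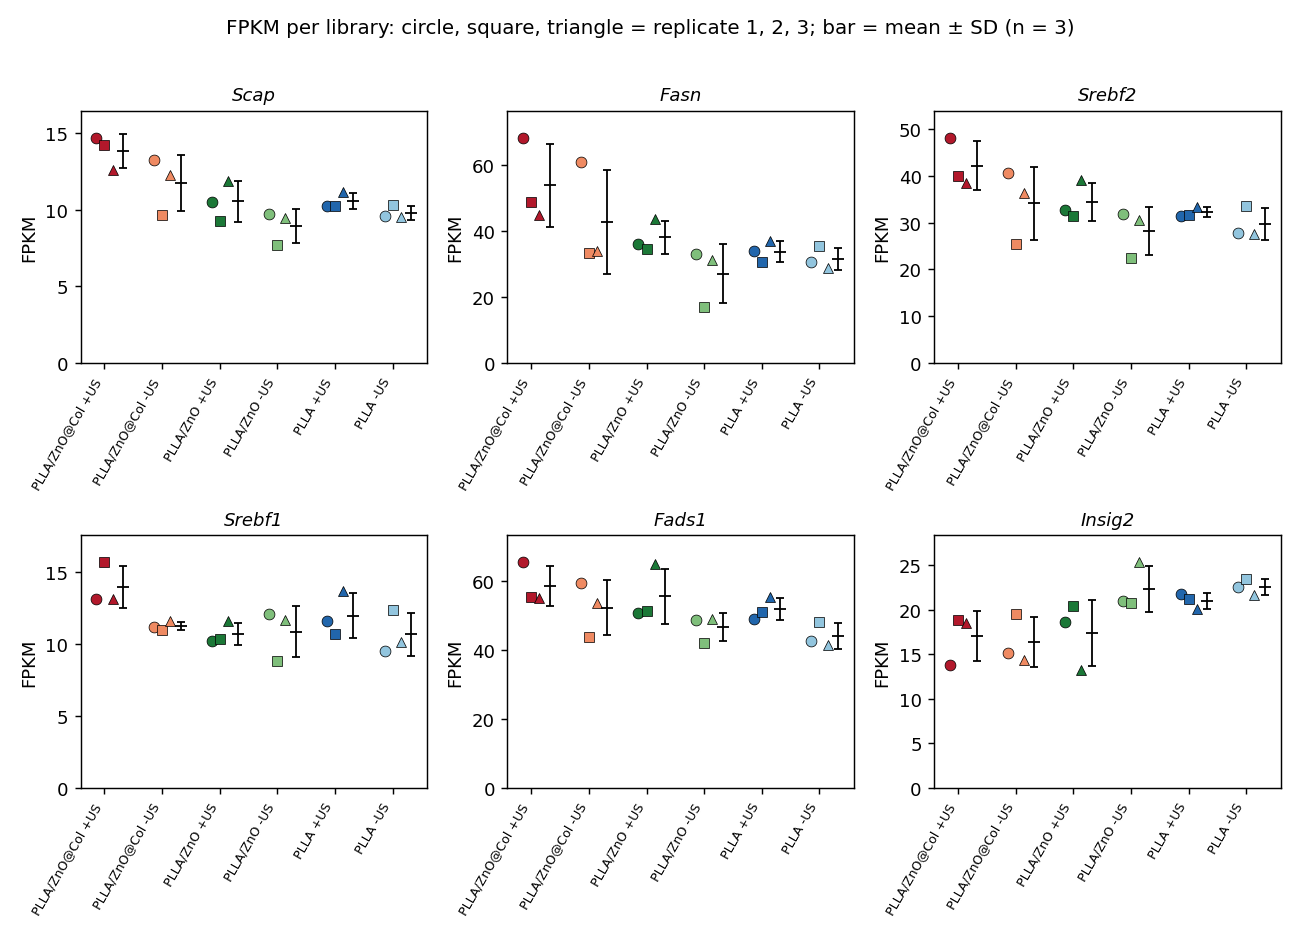
FPKM in each library of Scap, Fasn, Srebf2, Srebf1, Fads1 and Insig2, the members with the smallest F-test p, by group, with the group mean and SD (n = 3) beside the points. The PLLA/ZnO@Col +US points are high for Scap (12.6 to 14.7 FPKM) and Srebf1 (13.1 to 15.7), and the PLLA/ZnO@Col -US points of Fasn split into 1 high and 2 lower libraries.

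With ultrasound on plain PLLA no member passed the test, and the largest changes by p were below 0.5 on the log2 scale. Fads1 was at 51.9 ± 3.29 FPKM in PLLA +US cells and 44.1 ± 3.64 FPKM in PLLA -US cells (SD, n = 3 each) and had a log2 fold change of 0.20 (SE 0.15, adjusted p = 0.978). Sc5d was at 9.696, 10.2 and 7.004 FPKM in PLLA +US cells, against 11.4, 10.1 and 11.9 FPKM in PLLA -US cells (-0.34, SE 0.29), and Ggps1 at 3.62 ± 1.23 FPKM in PLLA +US cells and 5.02 ± 0.564 FPKM in PLLA -US cells (SD, n = 3 each), a log2 fold change of -0.49 (SE 0.43), both also with an adjusted p of 0.978. Replicate 3 of PLLA +US is the lowest in the pair of groups for Sc5d and Ggps1, and it is the library with low Y-linked reads. Without the 4 low libraries, an alternative chosen after the data were seen, the changes were -0.16 for Sc5d and -0.22 for Ggps1.

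Across the 32 members the median log2 fold change for ultrasound on PLLA was 0.03, with 19 higher and 13 lower, beside a median of 0.00 over all genes. By edgeR 0 members and 0 genes passed (0.0%). At an unadjusted p under 0.05 there were 0 members and 0.436% of genes (52), and DESeq2 called 0 genes. The +US libraries lay all above the -US libraries for 5 members (Cyp51, Fads1, Sqle, Fads2 and Dhcr7) and all below for 0, against 4.99% and 5.8% of all genes. By role, 11 of 19 sterol enzymes, 3 of 5 SREBP control genes and 5 of 7 fatty acid genes were higher.

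Ultrasound on PLLA/ZnO gave the 3 smallest p-values to a regulator and to fatty acid enzymes. Insig2 was at 17.4 ± 3.74 FPKM in PLLA/ZnO +US cells and 22.3 ± 2.57 FPKM in PLLA/ZnO -US cells (SD, n = 3 each), a log2 fold change of -0.36 (SE 0.17, adjusted p = 0.937). The groups did not overlap, and the lowest library was replicate 3, which is low in Y-linked reads; without the 4 such libraries the change was -0.20. Fasn was at 38.1 ± 4.93 FPKM in PLLA/ZnO +US cells and 27.1 ± 8.87 FPKM in PLLA/ZnO -US cells (SD, n = 3 each), a log2 fold change of 0.49 (SE 0.27), and Fads1 at 55.6 ± 8.06 FPKM in PLLA/ZnO +US cells and 46.7 ± 4.07 FPKM in PLLA/ZnO -US cells (SD, n = 3 each), a log2 fold change of 0.25 (SE 0.15), with an adjusted p of 0.937 for both. The low value of Fasn in PLLA/ZnO -US replicate 2 widens that difference, and its +US libraries lay above all -US libraries. Without the 4 libraries the changes were 0.38 for Fasn and 0.13 for Fads1.

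The median of the members was 0.05 for ultrasound on PLLA/ZnO, with 18 higher and 14 lower, beside -0.03 over all genes. The edgeR test called 0 members and 0 genes (0.0%), with 0 members and 3.24% of genes (387) at an unadjusted p under 0.05, and DESeq2 called 5 genes, none a member. All 3 libraries were above for 3 members (Fads1, Fasn and Nsdhl) and below for 1 (Insig2), against 6.82% and 4.62% of genes. Of the 7 fatty acid genes 6 were higher (median 0.18), and of the 19 sterol enzymes 10 were (median 0.02).

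On the collagen membrane, most fatty acid genes lay higher with ultrasound and most sterol enzymes lower, and none passed the test. Srebf1 was at 13.97 ± 1.48 FPKM in PLLA/ZnO@Col +US cells and 11.2 ± 0.292 FPKM in PLLA/ZnO@Col -US cells (SD, n = 3 each), a log2 fold change of 0.31 (SE 0.14, adjusted p = 0.525). Dhcr7, at 5.88, 6.35 and 5.65 FPKM in PLLA/ZnO@Col +US cells, against 5.36, 4.34 and 4.87 FPKM in PLLA/ZnO@Col -US cells, had a change of 0.29 (SE 0.14, adjusted p = 0.525). For both genes every +US library was above every -US library. Ggps1 was at 1.99 ± 0.286 FPKM in PLLA/ZnO@Col +US cells and 3.33 ± 1.99 FPKM in PLLA/ZnO@Col -US cells (SD, n = 3 each), a log2 fold change of -0.72 (SE 0.43, adjusted p = 0.525), and only replicate 2 of the -US libraries lay above the range of the +US libraries.

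All 7 fatty acid genes had positive log2 fold changes in PLLA/ZnO@Col +US against -US (median 0.16), but that of Acaca was 0.00077 (SE 0.27). Of the SREBP control genes 4 of 5 were higher (median 0.24), while 6 of 19 sterol enzymes were higher and 13 lower (median -0.14). Over the 32 members 17 were higher and 15 lower, with a median of 0.00 that had the opposite sign with DESeq2 size factors (-0.02), beside -0.03 over all genes. The count passing was 0 members and 0 genes in edgeR (0.0%). At an unadjusted p under 0.05 there was 1 member, Srebf1, and 8.18% of genes (976), and DESeq2 called 3 genes, none a member. All +US libraries were above for 2 members and below for 0, against 5.28% and 5.74% of genes.

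This comparison rests on libraries that stand apart. Without the 3 libraries that lack Y-linked reads, PLLA/ZnO@Col -US replicate 2 alone stands for its group and is assumed to vary like the others. In that fit Mvk had a log2 fold change of 1.18 (SE 0.24). The median of the members was 0.36, beside 0.10 over all genes. In all 3 replicates Mvk was at 25.7, 23.6 and 19.7 FPKM in PLLA/ZnO@Col +US cells, against 20.1, 9.86 and 31.7 FPKM in PLLA/ZnO@Col -US cells, and the groups overlapped. Without the 4 libraries with low Y-linked reads, PLLA/ZnO@Col +US replicate 1 alone is left with ultrasound. Then 0 genes were called, 29 of 32 members were higher and the median was 0.31. Leaving out replicate 1 of PLLA/ZnO@Col +US gave 38 called genes and no member, and the median was -0.17. Leaving out PLLA/ZnO@Col -US replicate 2 gave -0.21 and leaving out replicate 3 gave 0.18.

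**Figure D4:**
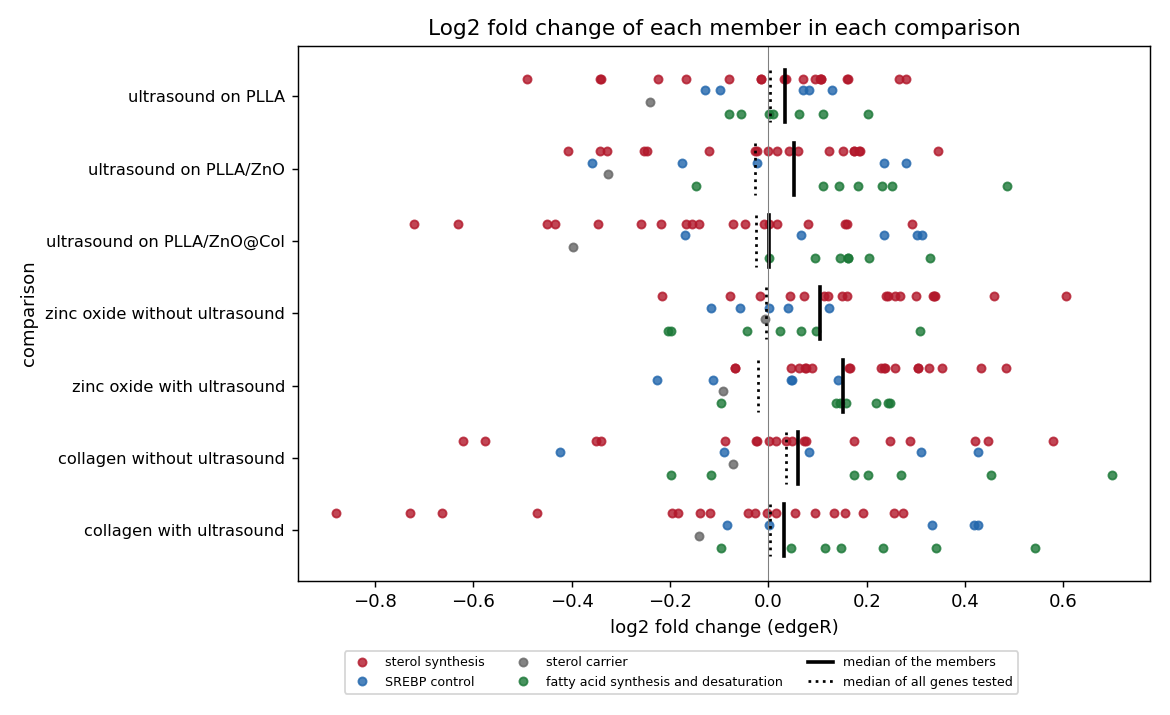
Log2 fold change (edgeR) of each of the 32 members in the 7 comparisons between groups, coloured by role, with solid lines at the median of the members and dotted lines at the median of all genes tested. The widest gap between the lines is for zinc oxide with ultrasound (0.15 against -0.02).

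Zinc oxide in the membrane came with higher values of most sterol enzymes, none of which passed the test. Without ultrasound, 16 of 19 had higher values on PLLA/ZnO than on PLLA (median log2 fold change 0.24). Pmvk was at 11.96, 9.501 and 8.91 FPKM in PLLA/ZnO -US cells, against 5.74, 7.38 and 7.01 FPKM in PLLA -US cells (0.61, SE 0.33), and Acat2 at 33.7, 40.6 and 32.8 FPKM in PLLA/ZnO -US cells, against 25.2, 32.96 and 27.4 FPKM in PLLA -US cells (0.34, SE 0.22). Lss was at 6.94, 5.76 and 6.14 FPKM in PLLA/ZnO -US cells, against 4.97, 6.03 and 5.06 FPKM in PLLA -US cells (0.24, SE 0.19), and the adjusted p was 1 for each. The groups were apart for Pmvk and overlapped for Acat2 and Lss.

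Over all members 23 were higher and 9 lower without ultrasound, which is 71.9% higher beside 48.9% of all genes, with a median of 0.11 beside -0.01. With DESeq2 size factors 21 were higher and 11 lower, with a median of 0.07 beside -0.04 over all genes. Limma's fit on log2(FPKM + 1) also gave 21 and 11, with a median of 0.09 beside -0.02. Neither a member nor any gene passed in edgeR (0.0%), and at an unadjusted p under 0.05 there were 0 members and 1.19% of genes (142). DESeq2 called 1 gene, not a member. All 3 PLLA/ZnO -US libraries lay above all 3 PLLA -US libraries for 5 members, Mvk, Pmvk, Mvd, Fdps and Fdft1, and below for 0, against 7.61% and 9.95% of genes. Idi1, which acts between Mvd and Fdps, had overlapping groups (0.15, SE 0.54). Neither group holds a library with low or no Y-linked reads, but their libraries differed in the mitochondrial share of counts. It was 2.5%, 3.43% and 2.64% in PLLA/ZnO -US and 3.72%, 2.31% and 3.72% in PLLA -US. The sterol enzymes' median deviation from their mean over the 18 libraries (log2 FPKM) was 0.10, 0.12 and 0.01, against -0.22, -0.03 and -0.18. What part the mitochondrial share has in this comparison was not tested.

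With ultrasound, 17 of 19 sterol enzymes had higher values on PLLA/ZnO than on PLLA (median 0.23). Nsdhl, which acts in the removal of methyl groups from lanosterol, was at 11.6, 10.2 and 13.6 FPKM in PLLA/ZnO +US cells, against 8.97, 8.63 and 9.47 FPKM in PLLA +US cells (0.43, SE 0.27). Acly was at 57.1, 56.5 and 63.5 FPKM in PLLA/ZnO +US cells, against 54.7, 47.3 and 52.3 FPKM in PLLA +US cells (0.24, SE 0.16), and Fdft1 at 23.2, 22.01 and 30.4 FPKM in PLLA/ZnO +US cells, against 19.8, 19.2 and 23.4 FPKM in PLLA +US cells (0.33, SE 0.22), each with an adjusted p of 1. All PLLA/ZnO +US libraries were above all PLLA +US libraries for Nsdhl and Acly but not for Fdft1. Fdft1 overlaps Ctsb, a highly expressed gene on the opposite strand.

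In all, 26 members were higher and 6 lower, 81.2% higher beside 46.2% of all genes, with a median of 0.15 beside -0.02. In limma's fit on log2(FPKM + 1) it was 20 higher and 12 lower, with a median of 0.09 beside -0.06 over all genes. By edgeR 0 members and 0 genes passed (0.0%), at an unadjusted p under 0.05 there were 0 members and 1.27% of genes (151), and DESeq2 called 2 genes, neither a member. The libraries were all above for 3 members (Cyp51, Acly and Nsdhl) and all below for 0, against 2.03% and 5.91% of genes. Fatty acid genes were higher in 6 of 7 (median 0.16). Replicate 3 is low in Y-linked reads in both groups, and without the 4 such libraries the median was 0.15, with 27 of 32 higher.

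Collagen on the PLLA/ZnO membrane was where single members had the smallest p-values. Without ultrasound, Scap was at 11.7 ± 1.83 FPKM in PLLA/ZnO@Col -US cells and 8.96 ± 1.104 FPKM in PLLA/ZnO -US cells (SD, n = 3 each), a log2 fold change of 0.43 (SE 0.15, adjusted p = 0.229). Fasn was at 42.8 ± 15.7 FPKM in PLLA/ZnO@Col -US cells and 27.1 ± 8.87 FPKM in PLLA/ZnO -US cells (SD, n = 3 each), a log2 fold change of 0.70 (SE 0.27, adjusted p = 0.288), and Insig2 at 16.3 ± 2.79 FPKM in PLLA/ZnO@Col -US cells and 22.3 ± 2.57 FPKM in PLLA/ZnO -US cells (SD, n = 3 each), a log2 fold change of -0.42 (SE 0.17, adjusted p = 0.305). All PLLA/ZnO@Col -US libraries were above all PLLA/ZnO -US libraries for Fasn and below them for Insig2, and for Scap the groups overlapped. Hmgcs1 and Idi1 also lay lower in every PLLA/ZnO@Col -US library, at 18.95 ± 2.26 FPKM in PLLA/ZnO@Col -US cells and 29.8 ± 4.41 FPKM in PLLA/ZnO -US cells (SD, n = 3 each) for Hmgcs1 and at 8.52 ± 0.949 FPKM in PLLA/ZnO@Col -US cells and 13.02 ± 4.13 FPKM in PLLA/ZnO -US cells (SD, n = 3 each) for Idi1.

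Of the 32 members 20 were higher and 12 lower in this comparison, with a median of 0.06 beside 0.04 over all genes. The edgeR count was 0 members and 0 genes (0.0%, smallest adjusted p = 0.0673). At an unadjusted p under 0.05 there were 3 members, Scap, Fasn and Insig2, and 12.9% of genes (1544). DESeq2 called 407 genes, none a member, and limma called 0, or 1 with a pseudocount of 0.1 FPKM. The count of members all above was 1 and all below 3, against 5.09% and 6.31% of genes.

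The result depends on which PLLA/ZnO@Col -US libraries are used. Replicate 2 is unlike the others of its group in Y-linked reads. Without it, edgeR called 1039 of the 11936 genes and 2 of the 32 members. These members were Scap (0.57, adjusted p = 0.0226) and Fads2, the delta-6 desaturase (0.54, adjusted p = 0.044). Replicates 1 and 3, which then stand for the group, both lack Y-linked reads, so collagen and that split cannot be told apart there. Fads2 had its lowest value of the series, 41.7 FPKM, in the replicate left out. Over all alternatives the adjusted p of Scap ran from 0.0226 to 0.961. Without replicates 1 and 3, and with replicate 1 of PLLA/ZnO@Col +US also left out, that is without the libraries that lack Y-linked reads, only replicate 2 was compared, and it is assumed to vary like the other libraries. In that fit Scap was at 0.08 (SE 0.18), Mvk at -1.09 and Fdps at -1.27. The median of the members was -0.29, beside -0.02 over all genes. Mvk (9.86 FPKM) and Fdps (11.98 FPKM) had their lowest values of the series in that 1 library. Leaving out replicate 3 gave 18 called genes, PLLA/ZnO +US replicate 3 gave 41, PLLA/ZnO@Col +US replicate 1 gave 95 and the 4 libraries with low Y-linked reads gave 83, with 0 members in each.

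With ultrasound, Srebf1, Scap and Hsd17b7 had the smallest p-values for collagen. Srebf1 was at 13.97 ± 1.48 FPKM in PLLA/ZnO@Col +US cells and 10.7 ± 0.762 FPKM in PLLA/ZnO +US cells (SD, n = 3 each), a log2 fold change of 0.42 (SE 0.14, adjusted p = 0.416). Scap was at 13.9 ± 1.103 FPKM in PLLA/ZnO@Col +US cells and 10.6 ± 1.33 FPKM in PLLA/ZnO +US cells (SD, n = 3 each), a log2 fold change of 0.43 (SE 0.15, adjusted p = 0.430). For both genes the groups did not overlap. Hsd17b7 was at 5.001, 4.44 and 5.55 FPKM in PLLA/ZnO@Col +US cells, against 8.04, 7.92 and 5.27 FPKM in PLLA/ZnO +US cells (-0.47, SE 0.21, adjusted p = 0.497), with overlapping groups.

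SREBP control genes were higher in 4 of 5 (median 0.33) and fatty acid genes in 6 of 7 (median 0.15), while sterol enzymes were higher in 8 of 19 (median -0.03). Over the members 18 were higher and 14 lower, with a median of 0.03 that was -0.02 in limma's fit on log2(FPKM + 1), beside 0.00 over all genes. In edgeR 0 members and 0 genes passed (0.0%), with 3 members (Srebf1, Scap and Hsd17b7) and 9.43% of genes (1125) at an unadjusted p under 0.05, and DESeq2 called 47 genes, none a member. All 3 libraries were above for 3 members (Srebf1, Fasn and Scap) and below for 0, against 10.2% and 5.08% of genes. Every PLLA/ZnO@Col +US library has low or no Y-linked reads, against 1 of 3 in PLLA/ZnO +US. Without the 3 libraries that lack such reads the median was -0.22, with Srebf1 at 0.43 and Scap at 0.34. Without the 4 low ones PLLA/ZnO@Col +US is replicate 1 alone, the library with the highest value of 12 members, and is assumed to vary like the others; the median was then 0.39, with Srebf1 at 0.41 and Scap at 0.63.

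Averaged over the 3 membranes, ultrasound gave Fads1 a log2 fold change of 0.21 (SE 0.08), Dhcr7 0.18 (SE 0.08) and Scap 0.18 (SE 0.08), each with an adjusted p of 0.363 in edgeR. Fads1 and Scap, but not Dhcr7, also lay higher in all 7 libraries with low or no Y-linked reads than in every other library. Of all genes 4.86% did so. Over the members 21 were higher and 11 lower, and the median was 0.03 beside 0.01 for all genes. The test called 0 members and 0 genes (0.0%), and these 3 members and 12.1% of genes (1444) had an unadjusted p under 0.05, while DESeq2 called 1 gene, not a member. Without the 3 libraries that lack Y-linked reads PLLA/ZnO@Col -US is replicate 2 alone, assumed to vary like the others. In that fit the median was 0.19 over the members and 0.05 over all genes. The changes were 0.50 for Mvk, 0.34 for Fads2, 0.36 for Fdft1, 0.48 for Fdps and 0.43 for Mvd, which were picked after that fit was seen. Each of these 5 members had its lowest value of the series in that 1 library. With the 3 libraries kept, none of these 5 members passed.

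Whether ultrasound acted differently between membranes was tested by the difference of its log2 fold changes. For PLLA/ZnO minus PLLA the smallest p-values were those of Acly (0.29, SE 0.23), Pmvk (-0.53, SE 0.47) and Fasn (0.42, SE 0.38), and the adjusted p was 1 for all 3. The median of the members was 0.03, with 19 positive, beside -0.01 over all genes, and it was -0.0031 in limma's fit on log2(FPKM + 1). By edgeR 0 members and 0 genes passed (0.0%), with 0 members and 0.385% of genes (46) at an unadjusted p under 0.05, and DESeq2 called 1 gene. For PLLA/ZnO@Col minus PLLA/ZnO they were those of Insig2 (0.42, SE 0.24), Srebf1 (0.34, SE 0.20) and Nsdhl (-0.49, SE 0.39), and the adjusted p was 0.999 for all 3. The members' median was -0.08, with 11 positive, beside -0.05, and it was 0.18 without the 3 libraries that lack Y-linked reads and 0.25 without the 4 low ones, each with 1 library in a collagen group. The edgeR test called 0 members and 0 genes (0.0%), with 0 members and 2.2% of genes (263) at an unadjusted p under 0.05, and DESeq2 called 0.

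Genes that work beside the members were followed in 5 further lists, with 0 genes called by edgeR in any comparison. Of 7 genes of SREBP processing and INSIG turnover 6 were tested. Among them Mbtps1, the site-1 protease that cuts SREBPs, had an adjusted p of 0.535 over the 6 groups, with log2 fold changes of 0.24 (SE 0.14) for collagen without ultrasound and 0.27 (SE 0.14) with it. Of 12 genes of sterol export, storage and LXR signalling 8 were tested. Npc1, which moves cholesterol out of lysosomes, had an F-test p of 0.0234 (adjusted p = 0.383) and changes of 0.55 (SE 0.18) for collagen without ultrasound and 0.51 (SE 0.18) with it. Lipa, the lysosomal acid lipase that frees cholesterol from its esters, had an F-test p of 0.0236 (adjusted p = 0.385) and changes of -0.61 (SE 0.19) and -0.16 (SE 0.19).

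All 13 genes of prenylation and other mevalonate branches were tested, with Rabggtb (adjusted p = 0.472) and Fntb (adjusted p = 0.512), subunits of the Rab and farnesyl transferases, first by F-test p. Of these 13, 9 were higher for zinc oxide without ultrasound (median 0.04) and 5 with it (median -0.11), beside 16 and 17 of 19 sterol enzymes. Of 20 genes of fatty acid activation and elongation 17 were tested, led by the elongase Elovl5 (adjusted p = 0.505) and the acyl-CoA synthetase Acsl3 (adjusted p = 0.595). Of 10 genes of fatty acid oxidation 9 were tested, led by Hadha (adjusted p = 0.538) and Acadm (adjusted p = 0.585), which act in mitochondrial beta-oxidation. In this list 8 of 9 were higher with ultrasound on PLLA (median 0.22), 8 of 9 on PLLA/ZnO (median 0.15) and 6 of 9 on PLLA/ZnO@Col (median 0.06), beside 50.5%, 46.3% and 47.1% of all genes. For collagen 3 of 9 were higher without ultrasound (median -0.04) and 1 of 9 with it (median -0.15), beside 55% and 50.4% of all genes.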

How the data were processed

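Polyadenylated RNA of 18 samples of MC3T3-E1 cells was sequenced by Illumina methods. Per the submitters' processing notes, cutadapt 1.9 trimmed the reads, FastQC inspected them and the build was GRCm38; which aligner and counter were used is not given in the sources used here, and neither is the handling of strand. The deposited table holds raw counts, as whole numbers for each gene and library, and the authors' FPKM values, scaled to transcript length and library size; the file headers name both. Libraries were grouped by their titles.

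Counts of 11936 genes (at least 1 FPKM in 3 or more libraries) were normalized by TMM and fitted in 1 model of 6 groups (edgeR 4.0.16, R 4.3.3, 12 residual degrees of freedom, common biological coefficient of variation 0.28). Quasi-likelihood F-tests were two-sided, and Benjamini-Hochberg adjustment ran over the 11936 genes in each comparison, at 0.05. SE is the absolute log2 fold change over the root of F. Libraries held 48307580 to 78039543 counts, and the spread between them, not depth, limits precision. The text names, per comparison, the 3 members with the smallest p, the 6 with the smallest F-test p, and 2 genes per further list; genes shown for the library pattern, for groups that do not overlap and for the promoters, and those called in an alternative, were chosen after their values were seen. Alternatives were DESeq2 1.42.0 and its size factors, limma 3.58.1 on log2(FPKM + 1) and log2(FPKM + 0.1), filters of 0 and 5 FPKM, a replicate block, only the libraries compared, and libraries left out. The test was also run on simulated counts drawn independently for each library, which do not hold the split by Y-linked reads and so cannot speak to it. Replicates did not agree within sampling noise (lowest chi-square per degree of freedom 13.1). The members and lists were chosen with earlier results of these data known. Motifs were searched in RefSeq promoter windows of GRCm38.p6. The result of 1 further gene of the lists is not reported here.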

Additional observations from a re-analysis of the deposited data

How the results depend on the processing

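Of the 32 members, none passed in any comparison in edgeR, and the count of genes called was also 0; both depended on which libraries and which tool were used. DESeq2 called 5 genes for ultrasound on PLLA/ZnO, 3 for ultrasound on PLLA/ZnO@Col, 1 and 2 for zinc oxide without and with ultrasound, 407 and 47 for collagen without and with it, 1 for average ultrasound, 1 for the difference between PLLA/ZnO and PLLA, and 506 with 1 member (Scap, adjusted p = 0.0112) over the 6 groups. Limma on log2(FPKM + 0.1) called 1 gene for collagen without ultrasound. Without the 3 libraries that lack Y-linked reads edgeR called 111 genes with 1 member and a member median of 0.36 for ultrasound on PLLA/ZnO@Col, 166 with 2 members (median -0.29) for collagen without ultrasound, 1044 with 5 members (median 0.19) for average ultrasound, 13 (median 0.18) for the difference between PLLA/ZnO@Col and PLLA/ZnO and 25 over the 6 groups; the median for collagen with ultrasound was -0.22. Without the 4 ultrasound libraries with low Y-linked reads, chosen after seeing the data, it called 83 genes for collagen without ultrasound, 1 for collagen with it (median 0.39) and 6 over the 6 groups, the medians were 0.31 for ultrasound on PLLA/ZnO@Col and 0.25 for its difference from PLLA/ZnO, and in that difference Insig2 (-0.022) and Nsdhl (0.19) changed sign. Each of these 2 fits leaves 1 library in a collagen group (PLLA/ZnO@Col -US replicate 2 or PLLA/ZnO@Col +US replicate 1), assumed to vary like the others. Beyond the samples left out, the cause was not tested.

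With each library left out in turn, called genes ranged over 0 to 1 for ultrasound on PLLA/ZnO, zinc oxide with ultrasound, average ultrasound and both differences, 0 to 38 for ultrasound on PLLA/ZnO@Col, 0 to 1039 for collagen without ultrasound and 0 to 211 over the 6 groups (211 without PLLA/ZnO@Col -US replicate 2, 7 without PLLA/ZnO@Col +US replicate 1). Called members ranged over 0 to 2 for collagen without ultrasound and 0 to 1 over the 6 groups. Member medians ranged from -0.21 to 0.18 for ultrasound on PLLA/ZnO@Col, -0.024 to 0.25 for collagen without ultrasound and -0.19 to 0.14 with it, 0.06 to 0.11 for zinc oxide without ultrasound and 0.14 to 0.19 with it, 0.0011 to 0.07 for ultrasound on PLLA, 0.02 to 0.15 on PLLA/ZnO, -0.04 to 0.13 for average ultrasound, -0.02 to 0.07 for the difference between PLLA/ZnO and PLLA and -0.22 to 0.03 for that between PLLA/ZnO@Col and PLLA/ZnO. Limma on log2(FPKM + 1) gave medians of 0.07, 0.03 and 0.06 for ultrasound on PLLA, PLLA/ZnO and PLLA/ZnO@Col, 0.09 for zinc oxide with ultrasound (20 of 32 higher), 0.02 and -0.02 for collagen without and with ultrasound, 0.05 for average ultrasound and -0.0031 and -0.02 for the differences. The labels do not say that a replicate number marks a shared batch, and not every same-numbered pair correlated over 0.1: r ran from -0.513 to 0.731 (median 0.0639, against -0.0246 for other numbers; 21 of 45 pairs over 0.1). As a hint from the data, 11 of 18 libraries were closest to their own number. The replicate block called 0 genes and 0 members and gave a member median of 0.14 for zinc oxide with ultrasound (26 of 32 higher). The fit of only the libraries compared gives no value for average ultrasound or the 6 groups. Depth did not limit any member, since the smallest count was 209.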
